A study of Bos taurus with 10 samples.

Results

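The sites described here are the cytosines of CG dinucleotides that were highly methylated in each of 10 bovine tissues. They were chosen by their measured levels: a site had to lie on an autosome, to carry at least 8 reads in all 10 libraries (an eligible site) and to have a methylation level of 80 % or more in each of them. Of 468619 CG sites in the series, 452664 lay on the 29 autosomes, 51227 of these were eligible, and 3347 were fully methylated in this sense. These 3347 sites made up 6.53 % of the eligible sites (95 % Wilson interval 6.32 to 6.75 %) and 0.739 % of the autosomal CG sites covered in at least 1 tissue. The interval takes sites as independent, which neighbouring sites are not, and so understates the error. For comparison, 30477 eligible sites (59.5 %) had a level of 20 % or less in every tissue and are called low sites, and the remaining 17403 (34.0 %) are called intermediate sites.

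The tissues were measured by reduced representation bisulphite sequencing (RRBS), with 1 library per tissue and no replicates, so that a difference between tissues is a difference between single libraries. Whole testes, nucleated blood cells, intercaruncular uterus, skeletal muscle sampled near caesarian and a lactating mammary gland (90 d of lactation) were adult. Abomasum, ileum, frontal cortex and mammary gland parenchyma were juvenile, while a fetus gave the rumen. Testis and rumen were male and the other 8 tissues female, so that sex and stage cannot be told apart from the tissue. The donors were the Hereford cow of the bovine reference genome and relatives of that cow, and which animal gave which tissue was not analysed here. Each tissue is a mixture of cell types, and a level is an average over them. Median depth over all deposited cytosines was 10 to 27 reads, lowest in abomasum.

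In mammals, DNA methylation is placed mainly on the cytosines of CG dinucleotides, and the mark is symmetric because the opposite strand reads CG as well. DNMT1 copies it to the new strand after replication, while DNMT3A and DNMT3B can methylate DNA that was not methylated before. Most CGs of a somatic genome are methylated, whereas the dense CGs of CG islands at promoters are mostly not, and RRBS cuts DNA at CCGG with *MspI* and therefore samples CG-rich DNA. Bisulphite converts unmethylated cytosines, so that the share of reads keeping a cytosine at a site is its methylation level.

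The 5 longest runs of fully methylated sites are shown to make clear what such DNA looks like. A run is a series of neighbouring eligible sites on either strand that are all fully methylated, with no gap over 100 bp. The sequences are on the forward strand of UMD3.1, put together from the short strings the files give around each cytosine. Capitals mark the CGs that are fully methylated on at least 1 strand, and n marks bases that no string covers.
Run 1, chr14:17145930-17145979: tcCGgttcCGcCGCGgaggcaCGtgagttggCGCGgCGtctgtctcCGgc
Run 2, chr24:2589828-2589966: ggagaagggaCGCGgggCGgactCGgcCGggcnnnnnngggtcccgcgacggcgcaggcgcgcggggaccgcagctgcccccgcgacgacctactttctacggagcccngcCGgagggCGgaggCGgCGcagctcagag
Run 3, chr25:41748429-41748522: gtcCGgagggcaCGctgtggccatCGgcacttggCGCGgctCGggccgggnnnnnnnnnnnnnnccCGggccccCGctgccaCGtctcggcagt
Run 4, chr18:62378722-62378769: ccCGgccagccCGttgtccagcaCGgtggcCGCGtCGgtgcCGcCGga
Run 5, chr29:48227066-48227117: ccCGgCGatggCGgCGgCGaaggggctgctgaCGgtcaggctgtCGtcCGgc

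Run 1 held 16 fully methylated sites in 9 CGs over 46 bp, 8 on each strand, and began and ended in a CCGG. Its mean level was 97.5 % in skeletal muscle, 94.4 % in testis, 97.9 % in mammary gland parenchyma, 98.6 % in uterus and 97.1 % in frontal cortex. It was 94.1 % in abomasum, 98.4 % in ileum, 97.9 % in rumen, 96.8 % in nucleated blood cells and 97.9 % in the lactating mammary gland. The tissues thus differed by a few points, with 14 to 53 reads behind each level.

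Run 2 was the longest in bp: 16 sites over 119 bp, in 2 clusters separated by CGs that were not eligible, with levels from 91.3 % in testis to 99.3 % in abomasum. Run 3 held 16 sites over 81 bp, with levels from 92.7 % in skeletal muscle to 97.6 % in ileum. Run 4 held 14 sites over 44 bp, and in it testis stood lower, at 86.6 %, than the other 9 tissues, which lay between 93.9 and 98.8 %. Run 5 held 14 sites over 48 bp, with levels from 93.3 % in abomasum to 97.4 % in nucleated blood cells. No tissue was therefore lowest in all 5 runs, and testis was lowest in runs 2 and 4. No genome annotation of UMD3.1 was used here, so genes, exons and CG islands at these positions were not analysed here.

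The mean level over the 3347 sites averaged 95.6 ± 0.759 % (SD, n = 10 tissues). It was 95.1 % in skeletal muscle, 93.8 % in testis, 95.4 % in mammary gland parenchyma, 95.8 % in uterus and 95.8 % in frontal cortex. It was 95.8 % in abomasum, 95.9 % in ileum, 95.5 % in rumen, 96.8 % in nucleated blood cells and 95.9 % in the lactating mammary gland. Testis was lowest and nucleated blood cells were highest, with the other 8 tissues within 1 point of each other. These levels were used by the choice of the sites and are given as a description, without a test. At the 443 sites with at least 20 reads in all tissues, where the levels by tissue were added after the data were seen, testis was again lowest, at 91.5 %, and nucleated blood cells highest, at 97.0 %, while frontal cortex was at 94.0 %.

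**Figure D1:**
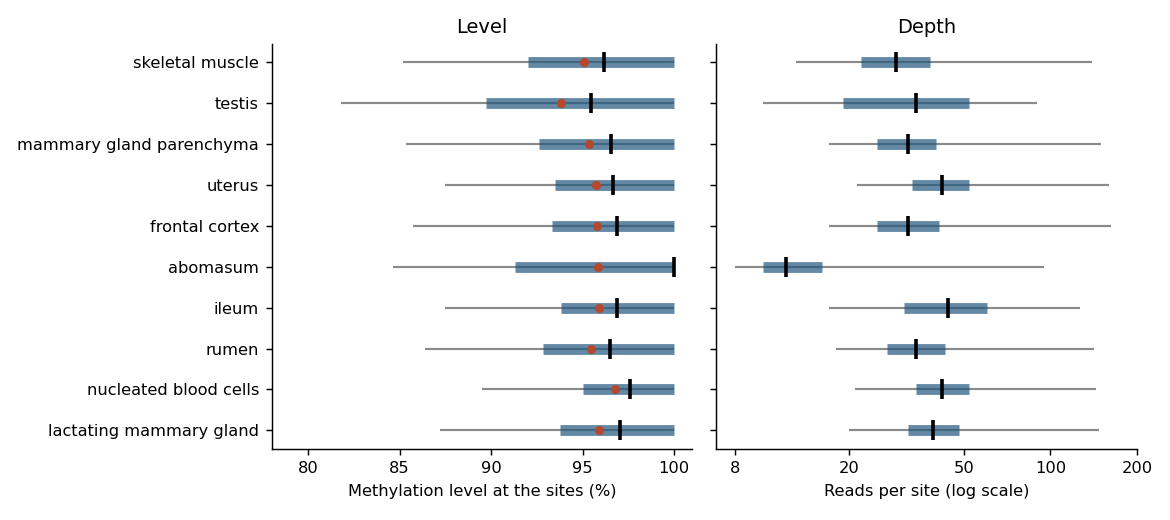
Methylation level in percent (left) and reads per site on a log scale (right) at the 3347 fully methylated sites in each tissue. Thick bars span the middle 50 % of sites, thin lines the 5th to 95th percentiles, black ticks mark medians and red dots means. Testis has the lowest mean level, 93.8 %, and abomasum the lowest median depth, 12 reads.

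The spread among the sites is bounded by the rule, which keeps each level between 80 and 100 %. The mean level of a site over the 10 tissues had a median of 95.9 % and ranged from 84.6 to 100 %. The difference between a site's highest and lowest tissue had a median of 12.0 points. A level above 90 % in every tissue was found at 1095 sites (32.7 %), a level of 95 % or more in every tissue at 274 (8.19 %), and a level of 100 % in every tissue at 55. The lowest level fell in a single tissue at 3202 sites, which was testis at 749 of them (23.4 %), abomasum at 447 (14.0 %) and nucleated blood cells at 140 (4.37 %).

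Sites on either side of the limit of 80 % had like mean levels. The 497 sites just inside it, with a lowest level of 80 to under 82 %, had a mean level of 93.0 % over the tissues, and the 333 sites just outside it, at 78 to under 80 %, had a mean of 92.2 %. Testis was the lowest tissue at 163 of the former and 142 of the latter. A further 3232 eligible sites (6.31 %) reached 80 % in 9 of the 10 tissues, nearly as many as in all 10, while 36158 (70.6 %) reached it in no tissue.

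Depth at these sites was moderate. The median number of reads was 29 in skeletal muscle, 34 in testis, 32 in mammary gland parenchyma, 42 in uterus and 32 in frontal cortex. It was 12 in abomasum, 44 in ileum, 34 in rumen, 42 in nucleated blood cells and 39 in the lactating mammary gland. Abomasum stood apart: 18.0 % of the sites had at least 20 reads there, and 57.8 % had a level of exactly 100 %, against 28.3 to 38.0 % in the other tissues. With 12 reads a single converted read lowers a level by several points, so that levels in abomasum came in coarse steps. Without abomasum the rule gave 5517 fully methylated sites among 76967 eligible ones (7.17 %), and without testis 6158 among 54830 (11.2 %). Leaving out any other tissue gave 3398 to 3579.

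The fully methylated sites were covered less deeply on average than the other eligible sites. The log2 ratio of mean reads was -0.619 ± 0.253 (SD, n = 10 tissues), below 0 in 10 of 10 tissues (two-sided exact sign-flip permutation test, p = 0.00195, the smallest that 10 tissues allow). With medians in place of means, the log2 ratio was only -0.121, below 0 in 7 of 10 tissues (p = 0.0156, same exact test). Very deep sites were most frequent among intermediate sites, of which 743 (4.27 %) exceeded 1000 reads in some tissue, against 37 fully methylated sites (1.11 %). Read numbers may be capped at 65535, so means that include the deepest sites are approximate. Against low sites the log2 ratio of means was the other way, 0.380 ± 0.369 (exact sign-flip permutation p = 0.0117, n = 10), and that of medians was -0.102 (p = 0.0703).

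The 5 deepest fully methylated sites, at most 1 per run, had at least 459 reads in every tissue. They are shown because their levels rest on the most reads, with the fully methylated CG in capitals on the forward strand of UMD3.1.
chr27:23711870, from 23711868 to 23711891: gtCGgnngtcgggtcgtggcgggg
chr6:18003981, from 18003961 to 18004002: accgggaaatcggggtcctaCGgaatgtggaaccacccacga
chr4:66531550, from 66531530 to 66531571: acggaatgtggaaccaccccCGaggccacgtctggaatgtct
chr4:66531573, from 66531553 to 66531584: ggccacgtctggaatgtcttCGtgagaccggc
chr27:37635502, from 37635500 to 37635523: acCGgnnngtcgggaaccgcttcc

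The sites on chromosomes 6 and 4 shared a stretch of 19 bases, acggaatgtggaaccaccc, although they lie on different chromosomes, while the sites at chr4:66531550 and chr4:66531573 lie close together in the same stretch of DNA. The reads were kept by the authors as uniquely mapped, and whether reads of near-identical copies elsewhere were placed here was not tested.

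At chr27:23711870, with 1497 to 7162 reads, the level ran from 94.8 % in abomasum to 98.6 % in uterus. At chr6:18003981 testis stood apart, with 3669 of 4503 reads methylated (81.5 %) against 93.7 to 97.4 % in the other 9 tissues. At chr27:37635502 testis also stood apart, with 631 of 784 reads methylated (80.5 %) against 94.0 to 97.7 % elsewhere. At chr4:66531550 testis was lowest, at 90.1 %, and nucleated blood cells were highest, at 97.7 %, and the same tissues bounded the level at chr4:66531573, at 84.5 and 93.7 %. Testis was thus the lowest tissue at 4 of these 5 deep sites, though chr4:66531550 and chr4:66531573 lie close together and may share reads.

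Along the chromosomes, fully methylated sites were concentrated towards the end. Bovine autosomes carry their centromere at one end, and the end of the assembled sequence is the arm's distal end. With each autosome cut into 10 equal parts up to its last covered cytosine, the last part (the distal 10 %) held 1809 fully methylated sites, or 54.0 %, although 28.1 % of all eligible sites lay there. Of the 14400 eligible sites there, 12.6 % were fully methylated, against 5.91 % in the first part and 1.82 % in the sixth, the lowest. The distal 10 % had a higher share than the rest of the chromosome on 26 of 29 autosomes, and the exceptions were chromosomes 13, 15 and 28. Low sites went the other way, with 49.9 % of eligible sites in the distal 10 % and 63.3 % elsewhere. At sites with at least 20 reads in every tissue, of which 443 of 7147 (6.20 %) were fully methylated, the gap was smaller, with 9.67 % in the distal 10 % and 5.51 % elsewhere.

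**Figure D2:**
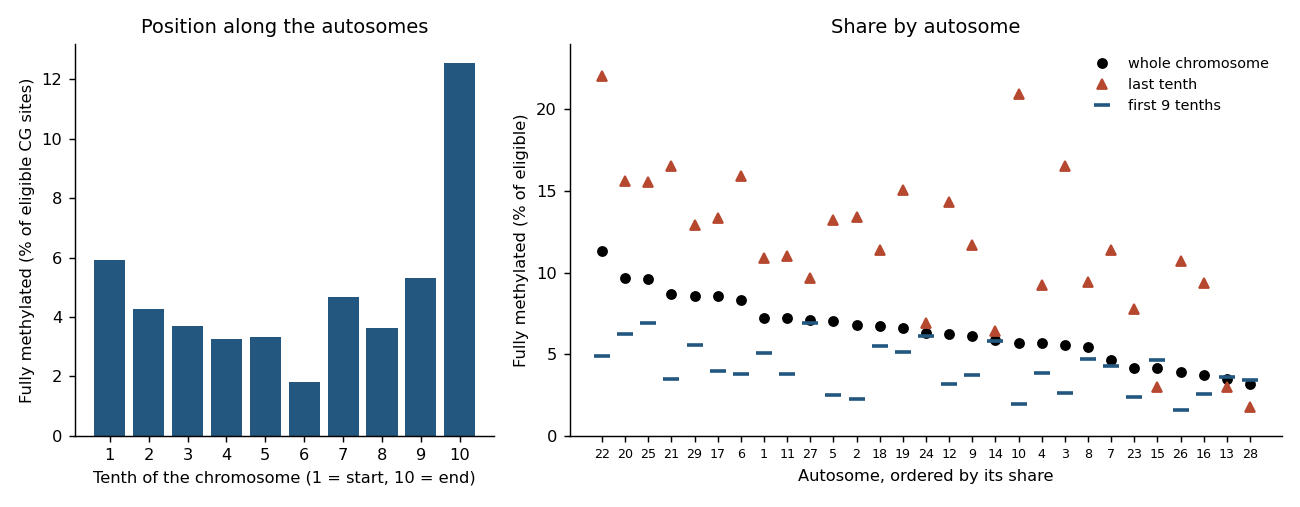
Percent of eligible CG sites that were fully methylated, by position along the chromosome in 10 equal parts over all autosomes (left) and by autosome (right; dots the whole chromosome, triangles its distal 10 %, dashes the rest). The distal 10 % reached 12.6 %, and the triangle lies above the dash on 26 of 29 autosomes.

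By chromosome, the share of eligible sites that were fully methylated was highest on chromosome 22 (170 of 1505 sites, 11.3 %), chromosome 20 (78 of 807, 9.67 %) and chromosome 25 (265 of 2755, 9.62 %). It was lowest on chromosome 28 (23 of 724, 3.18 %), chromosome 13 (80 of 2288, 3.50 %) and chromosome 16 (62 of 1671, 3.71 %). Chromosome 25 held more fully methylated sites than any other autosome. On chromosome 22, 124 of its 170 sites lay in the distal 10 %, where they were 22.0 % of the eligible sites.

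In windows of 1 Mb, 476 of the 1527 windows with an eligible site (31.2 %) held a fully methylated one, and 107 of these held 1 only. The fullest 10 % of these windows held 42.2 % of the sites. They were ranked by this number, so a high share follows in part from the ranking. The like figure for eligible sites was not determined. The highest number was 67 of 228 eligible sites at chr17:73000001-74000000, followed by 53 of 346 at chr6:109000001-110000000 and 52 of 184 at chr22:59000001-60000000.

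At short range many of the sites lay close together, as eligible sites did in general. The distance from a fully methylated site to the next on the chromosome had a median of 9 bp. It was 50 bp or less for 68.5 % of the distances and over 10000 bp for 25.9 %. For all eligible sites the median was 4 bp, and 87.1 % of the distances were 50 bp or less, so the fully methylated sites were spaced more widely. Both strands were counted, and 16.9 % of the distances between fully methylated sites were 1 bp, against 30.4 % for eligible sites. For low sites the median distance was 3 bp, and 89.2 % of the distances were 50 bp or less.

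The 3347 sites formed 1523 runs, of which 912 (59.9 %) were single sites. A run held 2.20 sites on average and 16 at most. Runs of at least 5 sites numbered 176 and held 1255 sites (37.5 %), and 29 runs held at least 10. These 176 runs lay on 28 autosomes, 106 of them (60.2 %) in the distal 10 %, with a median span of 30 bp. Low sites formed longer runs, with 8.14 sites on average, 46 at most and 92.0 % of the sites in runs of at least 5. This comparison is not matched for frequency: low sites were 59.5 % of the eligible sites and fully methylated ones 6.53 %. In 113 of the 176 longer runs (64.2 %) the first or last site was in a CCGG, which is where RRBS fragments begin. The same share was not determined for runs of low sites, so it is not a trait of the fully methylated ones.

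**Figure D3:**
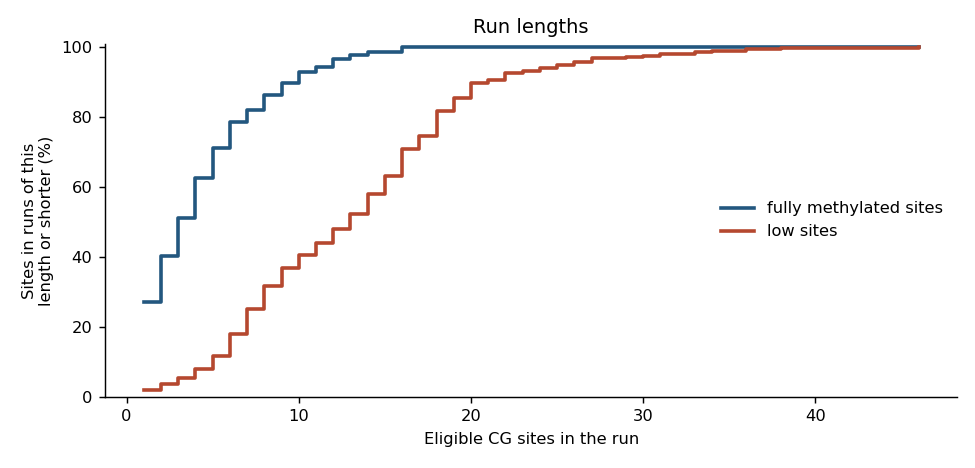
Cumulative percent of sites (y axis) in runs of a given number of eligible CG sites or fewer (x axis), for fully methylated and low sites. Runs of fully methylated sites end at 16 sites, those of low sites at 46.

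The sites at which runs ended mostly had a high level themselves. Of 3046 run ends, 1066 had no further eligible site within 100 bp. Of the other 1980, 1543 (77.9 %) met a site whose mean level was 80 % or more, 993 met a site below 80 % in exactly 1 tissue, and 50 met a low site. Linking all eligible sites no more than 100 bp apart gave 6358 loci, of which 1056 (16.6 %) held a fully methylated site. In 161 of these every eligible site was fully methylated, and 70 held a low site as well.

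The sites lay on the forward strand in 1577 cases and on the reverse strand in 1770, and belonged to 2841 CGs. The opposite cytosine was eligible for 1458 sites and was fully methylated itself for 1012 of them (69.4 %), which are 506 CGs. Where the opposite cytosine was eligible but not fully methylated, its mean level was still 82.1 %. With the reads of both strands pooled, 2669 of 39162 CGs (6.82 %) were fully methylated.

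The opposite cytosine of 1063 sites was deposited for some tissues only, so that its level played no part in the choice. Its mean level was 90.3 % in skeletal muscle, 88.0 % in testis, 92.0 % in mammary gland parenchyma, 93.6 % in uterus and 92.4 % in frontal cortex. It was 80.4 % in abomasum, 92.4 % in ileum, 93.0 % in rumen, 94.1 % in nucleated blood cells and 92.6 % in the lactating mammary gland. Over the tissues this was 90.9 ± 4.09 % (SD, n = 10), and 90.2 % of these cytosines reached 80 %. It was 4.90 ± 3.95 points below the selected strand, which is given without a test because that strand was chosen to be high. The number of such cytosines was 240 in abomasum, with a median of 11 reads, and 774 to 872 in the other tissues. The tissues are therefore not compared at the same cytosines.

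CG sites around the fully methylated ones were highly methylated as well. CG sites within 50 bp that were not eligible, and so were not used by the rule, had a mean level of 84.4 ± 4.87 % (SD, n = 10), from 74.2 % in testis and 78.6 % in abomasum to 91.2 % in nucleated blood cells. The same kind of site within 50 bp of low sites had 5.92 ± 1.05 %, and near intermediate sites 63.7 %. The first exceeded the second by 78.5 ± 4.55 points, in 10 of 10 tissues (p = 0.00195, two-sided exact sign-flip permutation test). Fully methylated and low sites were chosen by level in the same libraries, and neighbours this close can lie on the same reads. The direction was therefore largely set by the choice, and the p-value is not independent evidence. Of the neighbours of fully methylated sites, 76.0 % reached 80 %, with 749 to 1072 of them per tissue.

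Cytosines outside CG are named CHG and CHH, where H is any base but G, and are hardly methylated in most mammalian tissues. A level there also contains cytosines that bisulphite failed to convert, which cannot be told apart from methylated ones in these data. The paper gives a conversion rate per library from a spike control, lowest in ileum. The unconverted share it gives is of the same order as the levels below, which were not corrected for it. CHG cytosines within 50 bp of fully methylated sites had a mean level of 1.58 ± 0.111 % (SD, n = 10), from 1.41 % in mammary gland parenchyma to 1.76 % in ileum, against 0.744 ± 0.0498 % near low sites and 1.54 % near intermediate sites. The difference to low sites was 0.834 ± 0.0862 points and above 0 in each of the 10 tissues (p = 0.00195 in the exact sign-flip permutation test, adjusted 0.00195 over CHG and CHH). It fell to 0.368 points when cytosines were weighted by reads, and to 0.404 points without the first cytosine of CCG, an alternative chosen after the data were seen. Both kept p = 0.00195 in the exact permutation test. As with the CG neighbours, these cytosines can lie on the reads by which the sites were chosen. The p-values for CHG and CHH are therefore not independent of the choice. The difference to intermediate sites was not tested.

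CHH cytosines within 50 bp of fully methylated sites had a mean level of 1.80 ± 0.103 % (SD, n = 10), against 1.57 ± 0.0895 % near low sites and 1.60 % near intermediate sites. The difference to low sites was 0.230 ± 0.0776 points and above 0 in each of the 10 tissues (p = 0.00195 in the exact sign-flip permutation test, adjusted 0.00195). The limit given for CHG, that the reads can be shared with the chosen sites, holds here too. The CHH difference also did not hold under every setting. It was 0.0679 points with at least 20 reads (exact permutation p = 0.457), and weighted by reads it turned to -1.73 points (p = 0.00195 in the exact permutation test).

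Frontal cortex, a tissue whose neurons are known for non-CG methylation in adults, had 1.91 % CHH near fully methylated sites and 1.59 % CHG. For CHH it was second to ileum, with 1.96 %, whose library had the lowest conversion rate in the paper. Whether conversion set this order was not tested. Most non-CG neighbours had no methylated read. A level of 0 was found at 71.2 % of CHG near fully methylated sites and 84.9 % near low sites, and at 74.9 and 85.7 % of CHH, with the lower share near fully methylated sites in 10 of 10 tissues for either context. By distance, the difference to low sites was reversed at 11 to 20 bp, at -0.304 points for CHG and -0.682 for CHH, and for CHH also at 41 to 50 bp, at -0.916. Non-CG cytosines at 50 % or more in every tissue that covered them made up 0.449 % of CHG near fully methylated sites (41 of 9131) and 0.208 % near low sites. For CHH the shares were 0.894 % (133 of 14885) and 1.01 %. Not all of these were covered in all 10 tissues. Near fully methylated sites 24 of the 41 CHG and 75 of the 133 CHH were, and near low sites 39 of 69 and 226 of 418.

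**Figure D4:**
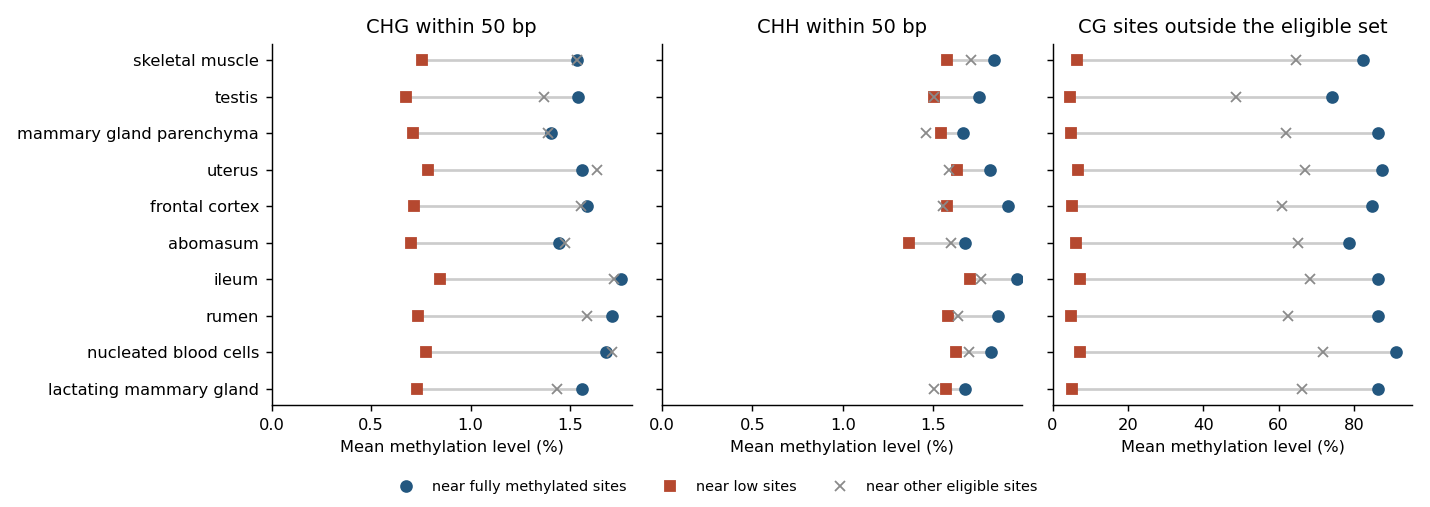
Mean methylation level in percent, by tissue, of CHG cytosines, CHH cytosines and CG sites outside the eligible set, within 50 bp of fully methylated (dots), low (squares) and intermediate (crosses) sites. In all 3 panels the dot lies to the right of the square in each tissue. The x axes start at 0 and differ in scale.

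The bases around the sites were compared with those of low and intermediate sites. The cytosine stood in a CCGG at 557 fully methylated sites (16.6 %), against 9.85 % of low and 17.6 % of intermediate sites. Of the 3 bases flanking the CG in the deposited strings, 76.9 % were G or C, against 85.3 % at low and 70.5 % at intermediate sites. The base before the CG was C at 41.5 % of the sites, against 37.8 % of low and 38.7 % of intermediate sites, and the base after it was G at 41.4 %, against 36.5 and 39.4 %. The number of other covered CGs within 50 bp had a median of 6, against 9 for low sites and 6 for intermediate ones. Nearly all sites (98.1 %) lay within 49 bp, the length of a read, of a covered CCGG, as did 97.4 % of the low sites.

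The share of eligible sites that were fully methylated depended only weakly on the base before the CG, with 7.37 % for ACG, 7.06 % for CCG, 6.07 % for GCG and 5.81 % for TCG. Among strings of 5 bases with at least 200 eligible sites, ACCGG had the highest share (98 of 666, 14.7 %) and TTCGT the lowest (4 of 289, 1.38 %). Fully methylated sites in CCGG had a mean level of 95.4 ± 1.07 % and the others of 95.6 ± 0.706 % (SD, n = 10 tissues).

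Whether a site that is fully methylated in 9 tissues is so in the tenth was examined by leaving each tissue out of the choice in turn. The level of the left-out tissue is then independent of the choice. Each site was tested against a level of 80 % with a one-sided exact binomial test on its reads, adjusted over all 51227 eligible sites (Benjamini-Hochberg, q below 0.01). The background is the percent of all eligible sites called below 80 % in that tissue, which is high because most eligible sites were low. The limit on q therefore holds over all eligible sites. Among the selected sites alone the share of false calls can be higher. The test concerns the reads of a library and not the spread between animals.

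In testis the choice left 5499 sites, with a mean level of 83.0 %. Of these, 39.1 % lay below 80 % and 939 (17.1 %) were called, against a background of 80.3 %. A level below 50 % was found at 150 of them (2.73 %) and a level of 20 % or less at 6.

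The other tissues held far fewer departures. In skeletal muscle 5.40 % of 3538 sites lay below 80 % and 39 were called (background 73.6 %). In the lactating mammary gland 3.68 % of 3475 sites lay below 80 % and 41 were called (background 72.8 %). In abomasum 7.03 % of 3600 sites lay below 80 %, 9 were called (background 71.8 %), and the median depth was 12 reads.

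In frontal cortex 2.79 % of 3443 sites lay below 80 % and 9 were called (background 75.5 %). In nucleated blood cells 1.15 % of 3386 sites lay below 80 % and 9 were called (background 69.9 %). In mammary gland parenchyma 4.54 % of 3506 sites lay below 80 % and 8 were called (background 72.5 %). These tissues had called shares under 1 %.

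In rumen 3.35 % of 3463 sites lay below 80 % and 5 were called (background 73.5 %). In uterus 1.36 % of 3393 sites lay below 80 % and 1 was called (background 71.9 %). In ileum 1.53 % of 3399 sites lay below 80 % and 1 was called (background 71.4 %). Outside testis the called share was at most 1.18 %, in the lactating mammary gland. Levels below 50 % also occurred outside testis, at 28 sites (0.791 %) in skeletal muscle, 18 (0.518 %) in the lactating mammary gland and 6 or fewer in each other tissue, and 4 sites in the lactating mammary gland were at 20 % or less.

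**Figure D5:**
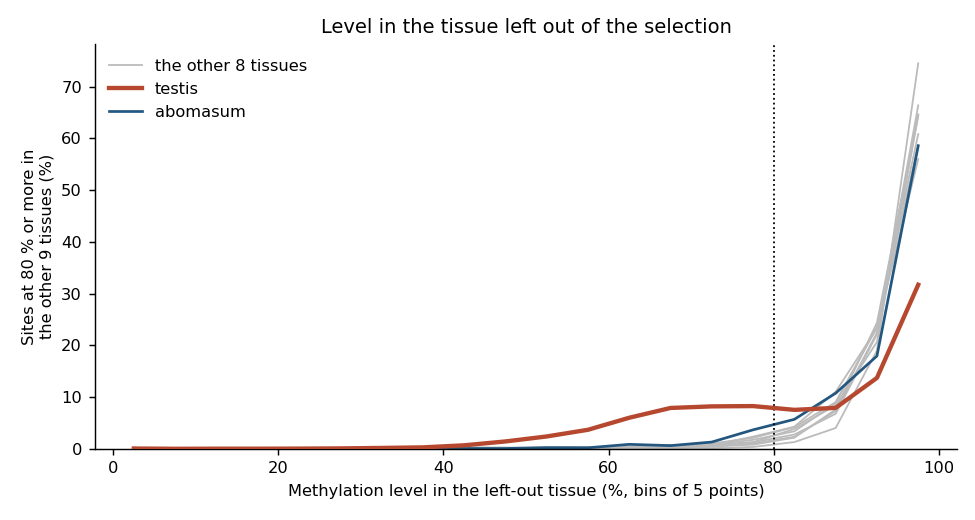
Percent of the sites at 80 % or more in 9 tissues (y axis) by their level in the left-out tissue in bins of 5 points (x axis), 1 line per left-out tissue. The dotted line marks 80 %. In testis 39.1 % of the sites lie to its left, in the other tissues 1.15 to 7.03 %.

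The 939 sites called in testis lay in 399 loci on all 29 autosomes. Of these loci, 237 (59.4 %) held 1 called site, and 49 held at least 5 called sites and 418 sites together, or 44.5 % of the calls. The 5499 tested sites lay in 1649 loci, of which 640 (38.8 %) held 1 such site, and 57.1 % of them lay in loci with at least 5. The largest held 21 called sites at chr23:49155124-49155171, with levels of 40.0 to 62.7 % in testis and at least 83.3 % in every other tissue. Loci with 20 called sites each lay at chr22:61124613-61124651 and chr25:30046658-30046704. The called sites lay in the distal 10 % of a chromosome in 27.5 % of cases, against 45.2 % of the 5499 sites tested.

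The sites named next are each the lowest in its tissue among sites with at least 20 reads in all libraries. This minimum leaves out lower levels counted above, including the testis sites at 20 % or less. In testis it was chr14:577202, with 43 of 131 reads methylated (32.8 %) and 80.4 to 93.5 % in the other 9 tissues. In the lactating mammary gland it was chr20:72019786, with 225 of 392 reads (57.4 %) and 80.7 to 94.1 % elsewhere. These were the only sites of the kind that were called by the test.

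In abomasum the lowest site was chr1:144131340, with 17 of 28 reads methylated (60.7 %). In nucleated blood cells it was chr12:34527111, with 18 of 28 (64.3 %). In rumen it was chr19:8922713, with 19 of 29 (65.5 %). These 3 rest on fewer than 30 reads each.

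In frontal cortex the lowest site was chr4:35989, with 31 of 45 reads methylated (68.9 %). In skeletal muscle it was chr5:117883812, with 32 of 44 (72.7 %). In mammary gland parenchyma it was chr28:1894936, with 30 of 41 (73.2 %). In ileum it was chr25:36109197, with 43 of 55 (78.2 %), and in uterus, at chr8:74786304, the lowest level was 82.7 %, above the limit.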

How the data were processed

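Genomic DNA of 10 tissues was cut with *MspI*, and fragments of 150 to 400 bp were bisulphite-treated and sequenced as 49-bp paired ends. With a pipeline based on SOAPaligner the authors mapped them to UMD3.1, kept uniquely mapped reads and deposited cytosines with at least 8 reads. For each of them the authors deposited the number of reads, a raw count without normalization, and the methylation level, a fraction of 0 to 1. The highest number of reads was 65535, which an intermediate site had in every library, so that very high counts may be capped. Further columns with the authors' own read number, p-value and false discovery rate per cytosine were not used. Level times reads was whole to within 2.91e-11 and gave the methylated reads. The binomial tests take reads as independent, but PCR copies were not told apart, so that they may understate even counting error. The Wilson interval takes sites as independent and covers neither the counting of reads nor the spread between animals. The sign-flip tests concern the direction over the 10 libraries at the same sites, and not the spread among sites.

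Means over cytosines are unweighted. Each strand was a site of its own. Differences over tissues were tested by exact permutation of their signs and left-out tissues by binomial tests, and both procedures were tested on simulated data. Sequences were joined from the 5-base strings of the files, which met without conflict. The sites, lists and thresholds were chosen with earlier results of these data known. Named were the 5 longest runs, the 5 deepest sites, the lowest site of each left-out tissue and the 3 chromosomes with the highest and the lowest share. Alternatives were other level and read minimums, windows, gaps, weightings and leaving out each tissue. Python 3.11.15, NumPy 2.4.6, pandas 2.3.3, SciPy 1.17.1 and matplotlib 3.10.9 were used.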

Additional observations from a re-analysis of the deposited data

Results flagged for a closer look

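9 measures over the 10 tissues were searched for a tissue whose gap to its nearest neighbour exceeded Dixon's 95 % critical value, which chance alone gives in about 1 of 20 groups. Abomasum stood apart in its median depth at the fully methylated sites, 12.0 reads against 29 to 44 in the other tissues, and in the share of these sites at a level of 100 %, 57.8 % against 38.0 % in the next tissue. Abomasum also had the lowest level on the opposite strand where that strand was not eligible, 80.4 % against 88.0 % in the next tissue. That level rests on 240 cytosines in abomasum and 774 to 872 in the others, so the tissues were not compared at the same cytosines. Testis stood apart when it was left out of the choice, with 39.1 % of the sites below 80 % against 7.03 % in the next tissue, and 17.1 % called against 1.18 %. Beyond the autosomes, 33 of 1050 eligible CG sites on the X chromosome (3.14 %) were at 80 % or more in every tissue. On the sequence that the files name chr_defined, 99 of 723 sites (13.7 %) were so, and on the mitochondrial sequence 0 of 7.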

How the results depend on the processing

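The strand difference is left out here because the rule fixes its direction. Of the other 78 alternatives, 70 kept the direction and the side of the threshold, or for counts stayed within 1.5 times. Many of them leave out 1 tissue. For the depth, CHG, CHH and CG neighbour differences all tissues shared a sign, so leaving out 1 could not change the outcome. The count of 70 is therefore no measure of robustness. The number of fully methylated sites, 3347, was 1189 with a threshold of 90 % and 443 with at least 20 reads, where fewer sites were eligible by construction. Leaving out 1 tissue in turn gave 3398 to 6158 sites, with 6158 without testis and 5517 without abomasum. The CHH difference of 0.230 points was 0.0679 with at least 20 reads (exact sign-flip permutation p = 0.457) and -1.73 weighted by reads. The cause was not tested. The 1061 calls over the left-out tissues fell to 13 against a level of 50 % and to 493 with at least 20 reads, both stricter by construction. Depth limits abomasum most, with a median of 12 reads at these sites.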
